A study of Mus musculus with 6 samples.

Results

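The let-7 family of mouse microRNAs (miRNAs) was followed across 6 culture conditions of mProx24 cells, an established line from the proximal tubule epithelium of C57B6 mouse kidney. Members were the probes for let-7a, let-7b, let-7c, let-7d, let-7e, let-7f, let-7g and let-7i, each as its 5p strand, and for miR-98-5p, matched by exact miRNA name. These are 9 of the 1247 miRNAs on the array, and they were taken by name, with no signal in the rule. Each condition was read on 1 Agilent array with 1 dye, from 100 ng of RNA. The first culture received high glucose, palmitate and 1% oxygen together (triple stimuli) with rapamycin, an inhibitor of the mTORC1 kinase complex, at 0.4 µg/ml from 12 h earlier. The second received the same triple stimuli without rapamycin. In both, palmitate was 150 µM for 9 h, also with 0.15% albumin, and 1% oxygen lasted 12 h. The third was hypoxia, 12 h at 1% oxygen. The fourth was palmitate, 150 µM for 9 h, given together with 0.15% albumin, so that palmitate and albumin cannot be told apart. The fifth was high glucose, at a concentration that the labels do not give, and the last was an untreated control. The palmitate, high glucose and control cultures were kept at 20% oxygen.

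let-7 was found in the nematode Caenorhabditis elegans as a gene that times larval development, and its sequence is conserved from worms to mammals. A mature let-7 guides an Argonaute protein to messenger RNAs that pair with its seed, the bases near its 5′ end, and lowers their translation and stability. Known targets in mammals include Lin28, Hmga2, Ras and Myc transcripts. The RNA-binding protein LIN28 blocks the maturation of let-7 precursors, so that let-7 is scarce in embryonic stem cells and abundant in most differentiated cells, epithelia of the kidney among them. Because members share a seed and come from several genes, they are usually described both singly and as a pool.

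All 9 members were matched by name to RefSeq's mouse table, on build GRCm38.p6. The mature sequences are given 5′ to 3′ because the near identity of the members decides what an array probe can distinguish. Capitals mark the seed, bases 2 to 8.
mmu-let-7a-5p: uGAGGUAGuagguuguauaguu
mmu-let-7b-5p: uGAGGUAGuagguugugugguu
mmu-let-7c-5p: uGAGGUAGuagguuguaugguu
mmu-let-7d-5p: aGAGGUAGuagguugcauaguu
mmu-let-7e-5p: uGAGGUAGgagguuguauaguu
mmu-let-7f-5p: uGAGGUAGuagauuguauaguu
mmu-let-7g-5p: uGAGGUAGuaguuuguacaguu
mmu-let-7i-5p: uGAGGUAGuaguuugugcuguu
mmu-miR-98-5p: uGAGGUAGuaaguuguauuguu
The seed is the same in all 9, and every sequence is 22 bases long. Counted from 1 at the 5′ end, with let-7a's base first, let-7c differs by A19G, let-7e by U9G and let-7f by G12A. let-7b carries A17G and A19G, let-7d U1A and U16C, let-7g G12U and U18C, and miR-98 G11A and A19U. let-7i is the farthest from let-7a, with G12U, A17G, U18C and A19U. Of the 36 pairs of members, 4 differ by 1 base and 10 by 2 bases.

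The table places the members in several genes and short clusters. Only genes that it lists under a member's name are given, so a member may have others. let-7a (chr13:48538239-48538260), let-7f (chr13:48537889-48537910) and let-7d (chr13:48536078-48536099) lie on the minus strand, with 261 bases between the let-7a and let-7f hairpins and 1714 bases between those of let-7f and let-7d. let-7c (chr15:85706616-85706637) and let-7b (chr15:85707325-85707346) lie on the plus strand within the long noncoding RNA gene Lncppara, 621 bases apart. A further let-7c gene is at chr16:77599672-77599693, 656 bases from Mir99a. let-7e (chr17:17830366-17830387) lies within the span of Spaca6, 367 bases from Mir125a. A further let-7f gene (chrX:151912353-151912374) and miR-98 (chrX:151913229-151913250) lie within Huwe1, and let-7g (chr9:106178846-106178867) within Wdr82. let-7i (chr10:122985698-122985719) lies in no other gene of that table.

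Each member had 2 probes on the array, which pair with the miRNA up to its 3′ end and differ from each other in length. The brighter probes of let-7a, let-7c, let-7f and miR-98 show how far their targets can be separated. They are written 5′ to 3′ as in the probe design, and capitals mark bases that are not the complement of let-7a's base.
let-7a probe: aactatacaacctactacct
let-7c probe: aacCatacaacctactacc
let-7f probe: aactatacaaTctactacctc
miR-98 probe: aacAatacaacTtactacctca
The let-7a probe has 1 mismatch to each of 4 other members, let-7c, let-7d, let-7e and let-7f. The probes of let-7b, let-7c, let-7d, let-7e and let-7f each have another member at 1 mismatch, whereas the probes of let-7g, let-7i and miR-98 have none nearer than 2. Cross-hybridisation between members was not tested, and the signal of a probe below is that of its target plus any such share.

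At least 162 miRNAs were detected on each array, 198 on at least 1 array and 154 on all 6. No spot was saturated. Before scaling, the 75th percentile of the probes detected on all arrays was 382 in triple stimuli plus rapamycin, 346 in triple stimuli, 335 in hypoxia, 318 in palmitate, 359.8 in high glucose and 295.5 in the control. All arrays were on 1 slide, with the 3 at 1% oxygen in one row and the 3 at 20% oxygen in the other, so slide row and oxygen cannot be told apart. Of the kidney tubule marker miRNAs, 7 of 11 were detected on all 6 arrays, namely miR-10a, miR-10b and miR-30a to miR-30e. The defining miR-192, miR-194, miR-215 and miR-204 were not, nor was any of the 5 epithelial markers of the miR-200 family. Of the other cell types listed, 0 of 6 blood, 0 of 2 endothelial and 0 of 4 fibroblast or smooth muscle markers on the array were detected, and 1 of 6 muscle, neuron and hepatocyte markers, miR-206-3p, was. Of the listed kidney and epithelial markers only those of miR-10 and miR-30 were thus detected, which does not settle the label of the line. These are RNA pools of whole cultures, in which fewer cells of a type and less RNA per cell cannot be told apart.

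For the palmitate and high glucose samples, the deposited table of processed values goes against the scanner files. Its palmitate column equalled the summed signals of the high glucose scan, up to 1 factor and within 0.1%, for 9 of 9 members. Its high glucose column equalled those of the palmitate scan for 9 of 9. The other 4 columns each equalled their own scan for 9 of 9 members. Values below follow the scanner files. With the labels exchanged, each comparison of high glucose takes the values given for palmitate, and the reverse.

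All 9 members were detected by both probes on all 6 arrays, 108 of 108 readings. Each reading was the mean of 13 to 20 spots, and the spots of a probe had a median coefficient of variation of 5.49%, from 1.09% to 20.7%. The members together made up 11.8% of the summed miRNA signal in triple stimuli plus rapamycin, 10.6% in triple stimuli, 11.5% in hypoxia, 13.3% in palmitate, 10.4% in high glucose and 11.1% in the control. let-7 was thus readily measured in these cells under every condition.

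Signals below are linear intensities of the brighter probe after scaling, listed for triple stimuli plus rapamycin, triple stimuli, hypoxia, palmitate, high glucose and the control, in that order. mmu-let-7f-5p read 3292, 3447, 3393, 3447, 3503 and 3464. mmu-let-7a-5p, which differs from it by a single base, read 2788, 2827, 2838, 2985, 2881 and 2846. The highest array exceeded the lowest by 1.06-fold for let-7f and by 1.07-fold for let-7a, the narrowest spans of the family.

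mmu-let-7c-5p, whose probe has let-7a and let-7b at 1 mismatch, read 1883, 1879.6, 1907, 2106, 1914 and 2157. mmu-let-7b-5p, its neighbour on chromosome 15, read 1656 ± 19.3, 1627 ± 12.3, 1631 ± 23.3, 1705 ± 13.4, 1699.7 ± 22.5 and 1906 ± 30.1 (standard error over 19 or 20 spots). mmu-let-7d-5p, the third member of the chromosome 13 cluster, read 1241, 1249, 1173, 1278, 1257 and 1357. In all 3 of these members the control array was the highest, and the control and palmitate arrays were the 2 highest.

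mmu-let-7i-5p read 1045, 1075, 1025, 1048, 1099 and 1107. mmu-let-7e-5p, the member beside miR-125a, read 836, 860.1, 782, 854, 767 and 842. mmu-let-7g-5p read 367, 380.3, 363, 379.6, 416 and 394. mmu-miR-98-5p, which shares the seed but not the name, read 109, 119.7, 117, 114, 125.5 and 111. let-7i was highest in the control, let-7e in triple stimuli, and let-7g and miR-98 in high glucose.

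**Figure D1:**
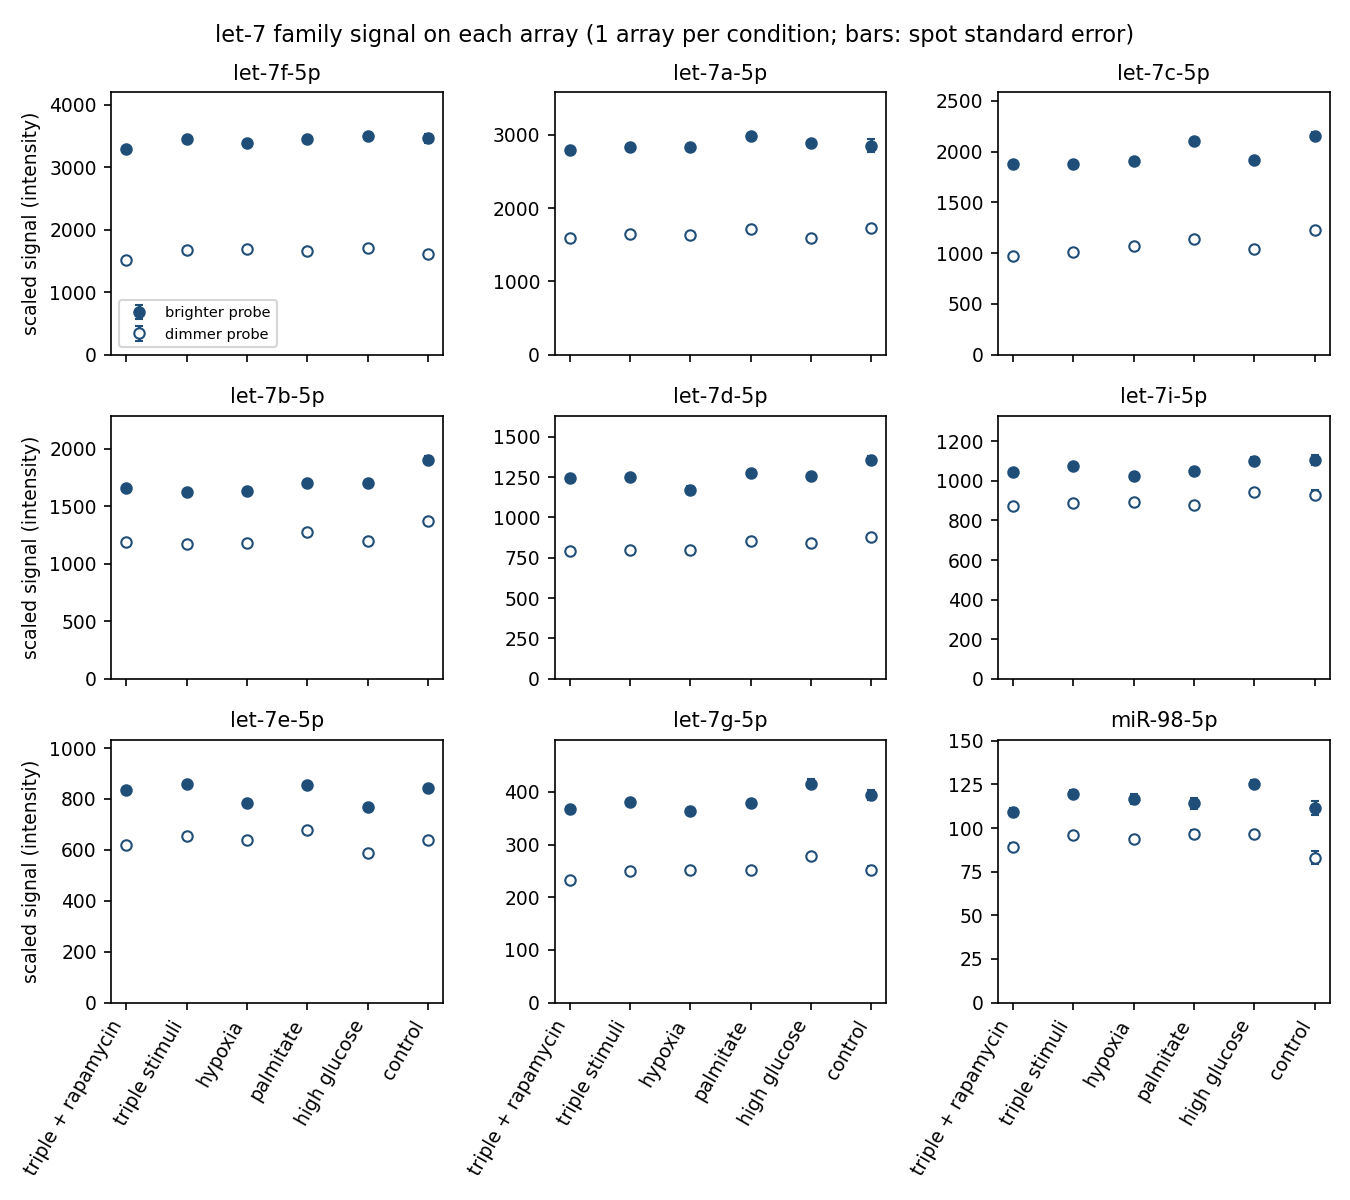
Scaled signal (linear intensity, axes from 0) of the 9 members on each of the 6 arrays, with 1 panel per member; filled points are the brighter probe, open points the dimmer probe, and bars the standard error over spots. Each member is nearly level across arrays, with the widest span of the brighter probe in let-7b, 1.17-fold from the lowest to the highest array.

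The order of signal, from let-7f through let-7a, let-7c, let-7b, let-7d, let-7i and let-7e to let-7g and miR-98, was the same on all 6 arrays, with the brighter probe and with the software's summed signal per miRNA. That sum includes the brighter probe. The dimmer probes gave another order. With them let-7b read above let-7c on all 6 arrays (1375 against 1225 in the control), and let-7i above let-7d (931 against 880). let-7a read above let-7f in the control (1733 against 1612) and below it in hypoxia (1636 against 1694). Each is an order of signals. Probes differ in length and base composition, so neither gives the order of abundance. The brighter probe exceeded the dimmer probe of the same member by 1.14-fold to 2.16-fold, which shows how far 2 probes of 1 miRNA can differ.

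Across conditions, most neighbours in a member's own order could not be separated. Of the 45 steps between neighbouring arrays within a member, 8 exceeded 2 spot standard errors, and let-7g and let-7i had no such step. For let-7b the step between palmitate and the control did (log2 0.16, spot SE 0.03), and the other 5 arrays did not separate from their neighbours. For let-7c the step between high glucose and palmitate did (0.14, spot SE 0.03). The standard deviation of a member's log2 signal over the 6 arrays was 0.03 to 0.09, with a median of 0.07. Over all 154 miRNAs detected on every array the median was 0.12, with the 5th and 95th percentiles at 0.05 and 0.42. All 9 members lay under that median, let-7f with the second lowest and let-7c with rank 42 counted from the lowest. The spread was computed after the scaling used in the text only, and the let-7 probes are among the probes that set that scaling. Before scaling, let-7f ran from 3024 in the control to 3724 in high glucose. This describes 6 arrays, and members whose probes have near-identical targets are not independent of each other.

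In each comparison of 2 arrays a miRNA was called when it was detected on both, differed by at least 1.5-fold and differed by more than 2 standard errors of its spots. That error covers spots of the same array and no repeat culture or array, so no p-value can be given here. The 5 comparisons with the control share the control array, and 1 unusual reading there enters all of them. At a lower limit, log2 0.32 in place of 1.5-fold, there was again no member called in any of the 6 comparisons. At that limit the calls among all miRNAs were 14.2% for high glucose, 10.3% for palmitate, 11.7% for hypoxia, 18.0% for triple stimuli and 23.8% for triple stimuli plus rapamycin, each against the control, and 15.2% for triple stimuli plus rapamycin against triple stimuli.

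High glucose minus control asked what glucose alone did. No member was called, against 6.79% of the 162 miRNAs detected on both arrays. The members ran from −0.17 for let-7c to 0.17 for miR-98 on the log2 scale, 4 higher and 5 lower. Their median was −0.01, beside −0.05 for all 162. let-7b (−0.17), let-7c, let-7d (−0.11), let-7e (−0.13) and miR-98 differed by more than 2 spot standard errors, which 63.6% of all miRNAs did as well. For 7 of 9 members both probes had the same sign. let-7a was at 0.02 with its brighter probe and −0.13 with the dimmer one.

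Palmitate minus control asked the same of palmitate with albumin. Again no member was called, against 2.58% of 155 miRNAs. The members ran from −0.16 for let-7b to 0.07 for let-7a, 3 higher and 6 lower, with a median of −0.03 that equalled the median of all 155 and was 0.07 without scaling. let-7b and let-7d (−0.09) were the members beyond 2 spot standard errors, against 46.5% of all miRNAs. let-7c, lower by 0.17 in high glucose, was lower by 0.03 here.

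Hypoxia minus control asked what 1% oxygen alone did. No member was called, against 1.85% of 162 miRNAs. After scaling, 8 of 9 members were lower, from −0.22 for let-7b to 0.06 for miR-98, with a median of −0.11 that was 0.07 without scaling. The median over all 162 miRNAs was also −0.11, so the members lay where the array as a whole lay. let-7b, let-7d (−0.21), let-7c (−0.18), let-7g (−0.12), let-7i (−0.11) and let-7e (−0.11) were beyond 2 spot standard errors, against 61.1% of all. The dimmer probes of let-7g and let-7e read 0.0012 and −0.0008.

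Triple stimuli minus control asked what the 3 stimuli did together. No member was called, against 5.59% of 161 miRNAs. The members ran from −0.23 for let-7b to 0.10 for miR-98, 2 higher and 7 lower, with a median of −0.04 that was 0.19 without scaling. The median of all 161 was 0.01. let-7b, let-7c (−0.20) and let-7d (−0.12) were beyond 2 spot standard errors, against 63.4% of all.

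Triple stimuli plus rapamycin minus control had the highest share of called miRNAs, 9.15% of 164, and no let-7 member among them. All 9 members were lower after scaling, from −0.20 for let-7b to −0.01 for let-7e, with a median of −0.08 that was 0.29 without scaling. The median of all 164 was −0.11. let-7b, let-7c (−0.20), let-7d (−0.13), let-7g (−0.10), let-7i (−0.08) and let-7f (−0.07) were beyond 2 spot standard errors, against 71.3% of all.

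Triple stimuli plus rapamycin minus triple stimuli asked what rapamycin added, without the control array. No member was called, against 3.8% of 184 miRNAs. The members ran from −0.13 for miR-98 to 0.03 for let-7b, 2 higher and 7 lower, and their median of −0.04 stood beside −0.07 for all 184. miR-98 and let-7f (−0.07) were beyond 2 spot standard errors, against 53.8% of all miRNAs. Their dimmer probes read −0.11 and −0.13. let-7b and let-7c, each lower than the control on both arrays, differed by 0.03 and 0.0025 between them.

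**Figure D2:**
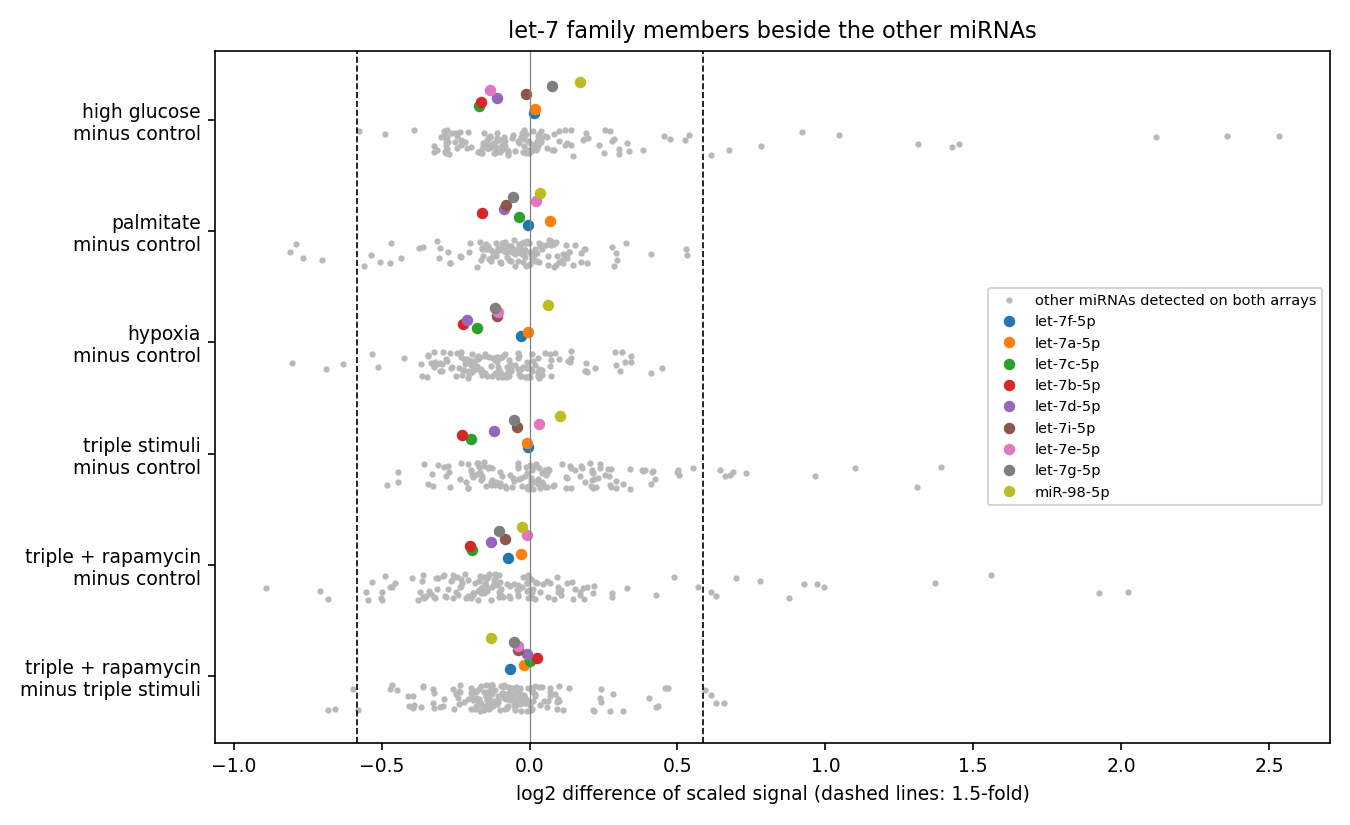
Log2 difference of scaled signal for each member (coloured) and for the other miRNAs detected on both arrays (grey), 1 row per comparison, with dashed lines at 1.5-fold. Members lie between −0.23 and 0.17 in every row and inside both lines, while some other miRNAs lie outside them in each row.

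The small differences above are near the size of the scaling between arrays. Without scaling, the family median was 0.27 for high glucose minus control, 0.07 for palmitate minus control, 0.07 for hypoxia minus control, 0.19 for triple stimuli minus control and 0.29 for triple stimuli plus rapamycin minus control. The median over all miRNAs moved with it, to 0.23, 0.07, 0.08, 0.24 and 0.26. All 5 family medians against the control were thus negative with the scaling used in the text and positive without scaling. With spike-in scaling all 5 were positive too, from 0.0082 for palmitate to 0.25 for triple stimuli plus rapamycin. Relative to the median of all miRNAs, the family median stayed between −0.08 and 0.14 in all 6 comparisons under every setting tried. let-7b was the member most often lowest. Its unscaled signal was 1870 in triple stimuli plus rapamycin, 1665 in triple stimuli, 1617 in hypoxia, 1604 in palmitate and 1807 in high glucose, against 1664 in the control. Its direction against the control therefore turned to higher without scaling for high glucose (0.12) and triple stimuli plus rapamycin (0.17), and stood at 0.0012 for triple stimuli. For palmitate it turned with scaling to the percentile of all probes (0.03).

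**Figure D3:**
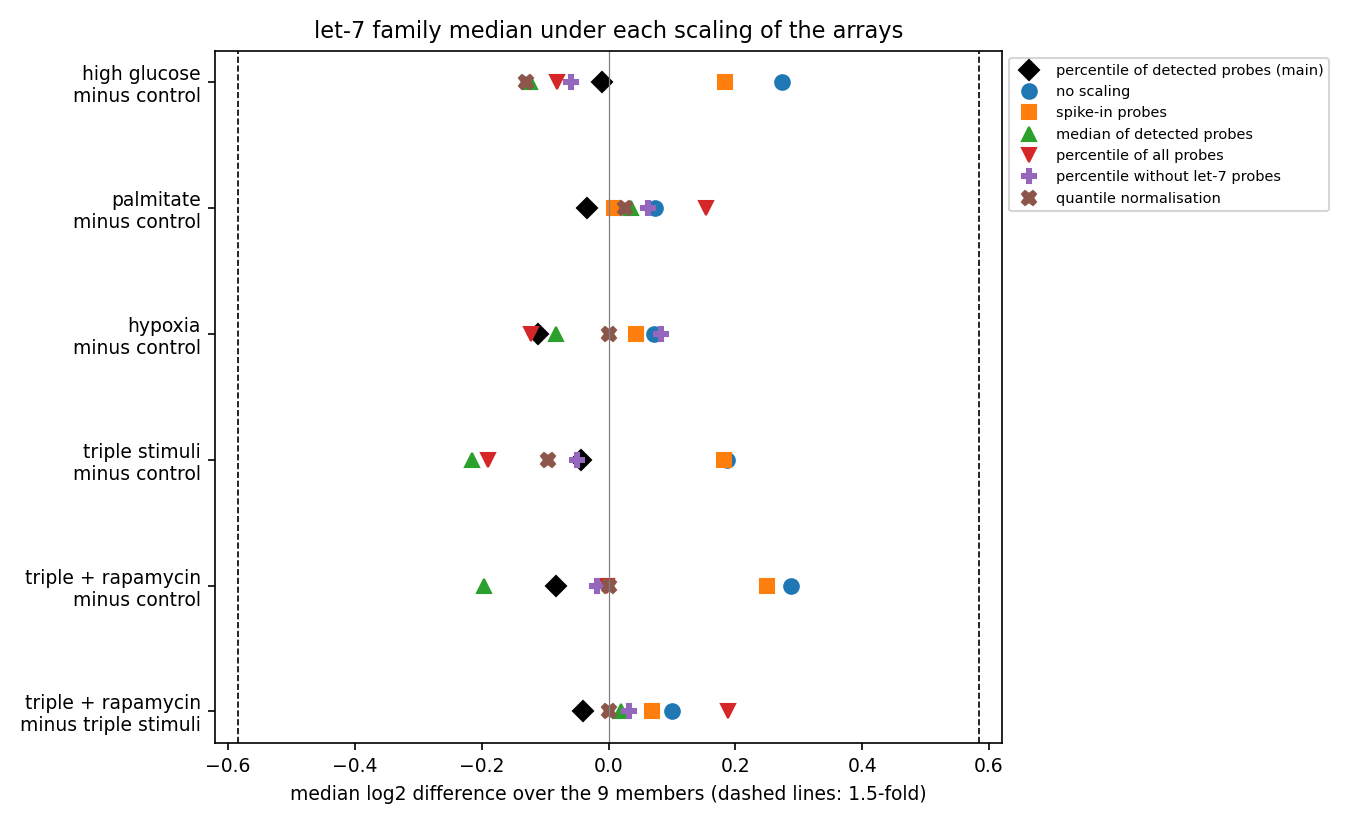
Median log2 difference over the 9 members in each comparison (rows) under each scaling of the arrays (symbols), with dashed lines at 1.5-fold. Black diamonds, the scaling used in the text, lie from −0.11 to −0.01; without scaling the high glucose and rapamycin medians against the control are 0.27 and 0.29.

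A ratio within an array does not depend on scaling. Each member was therefore also set against the mean log2 signal of the 9 members on the same array. These differences show unequal readings among members and not which member differs. let-7b stood above the family mean by 0.69 in triple stimuli plus rapamycin, 0.63 in triple stimuli, 0.68 in hypoxia, 0.67 in palmitate and 0.67 in high glucose, against 0.80 in the control. With the dimmer probes it stood at 0.84, 0.76, 0.76, 0.83 and 0.77 in the same order, against 0.93 in the control. let-7b was thus highest in the control relative to its family with both probes.

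let-7c stood above the family mean by 0.88, 0.84, 0.90, 0.98 and 0.84 on the treated arrays in that order, against 0.98 in the control. Its dimmer probe read 0.55, 0.54, 0.62, 0.67 and 0.56, against 0.77 in the control. miR-98 lay below the family mean, at −3.23, −3.13, −3.13, −3.23 and −3.09, against −3.30 in the control. Its dimmer probe read −2.89, −2.85, −2.89, −2.90 and −2.87, against −3.11 in the control, so miR-98 was lowest there with both probes. The spots of miR-98's dimmer probe varied by 6.19% to 10.3% on the treated arrays and by 20.7% in the control, and the part of this in the difference was not tested. let-7c and let-7d also read highest in the control with both probes, let-7d at 0.31 and 0.29. let-7f read lowest there with both, at 1.66 and 1.16. Several of these margins lay within 2 standard errors of the member's own spots. The nearest array minus the control was −0.0016 for let-7c's brighter probe and 0.07 for miR-98's (spot SE 0.03 and 0.06). It was −0.03 for let-7d with both probes (spot SE 0.03), and 0.02 and 0.03 for let-7f (spot SE 0.03 and 0.04). Those ranks are therefore not resolved. let-7g was highest and let-7e lowest in high glucose with both probes. The 2 probes of let-7a disagreed. Its brighter probe read lowest in the control (1.38) and its dimmer probe highest there (1.27). For let-7a the nearest array minus the control was 0.05 and −0.0095 with these probes. let-7a, let-7b, let-7c, let-7d, let-7e, let-7f, let-7g and miR-98 were picked out here by their values, and with 1 control array the differences cannot be set against replicate error.

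**Figure D4:**
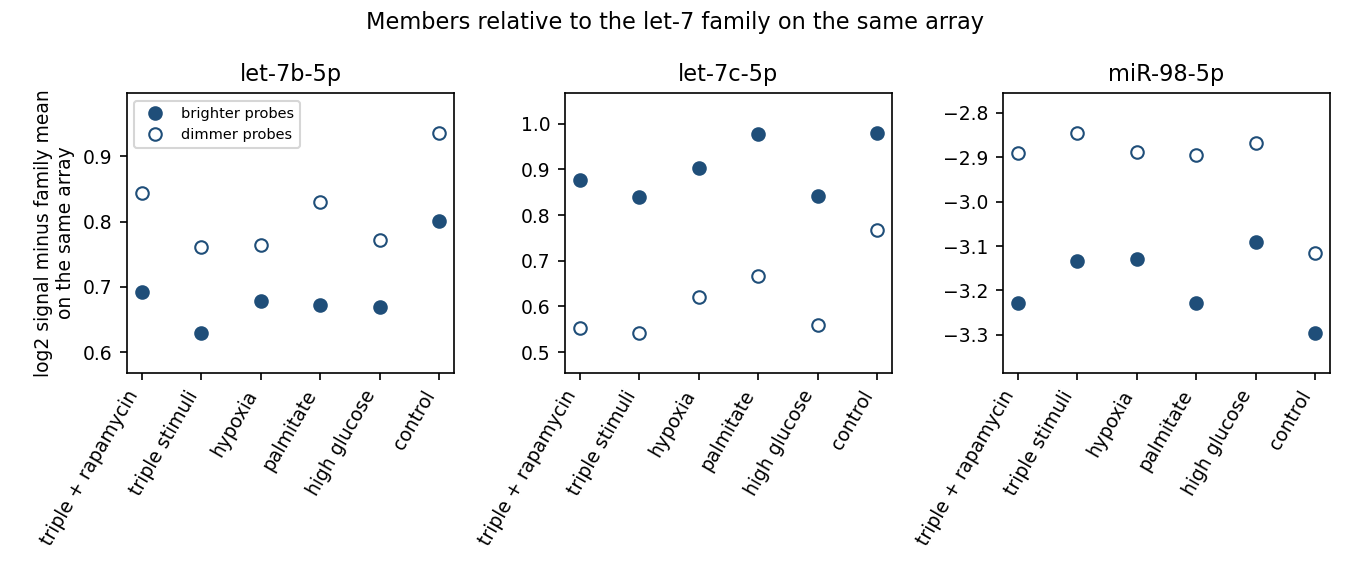
Log2 signal of let-7b, let-7c and miR-98 minus the mean of the 9 members on the same array, for the brighter probes (filled) and the dimmer probes (open); the axes do not start at 0. The control array is the highest for let-7b with both probes and the lowest for miR-98 with both. For miR-98's brighter probe, palmitate minus the control is 0.07 (spot SE 0.06). For let-7c the brighter probe gives 0.98 in both palmitate and the control.

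Grouping the arrays by a factor gave 3 arrays on each side and a test over all 154 miRNAs (limma, two-sided, Benjamini-Hochberg adjustment). Each side mixes treatments that the factor does not name, so these p-values set a factor against that mixed spread, and the 3 groupings share arrays.

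At 1% against 20% oxygen no member passed, and 0.0% of the 154 miRNAs did, with 7 of them at an unadjusted limma p under 0.05. The lowest limma adjusted p among members was 0.884, shared by let-7b, let-7c, let-7d and let-7g. let-7c averaged 10.88 ± 0.01 at 1% oxygen and 11.01 ± 0.09 at 20% oxygen (log2 signal, SD, n = 3 each), a limma difference of −0.12 with a standard error of 0.07. let-7b averaged 10.68 ± 0.01 at 1% oxygen and 10.79 ± 0.09 at 20% oxygen. Of the 9 members, 8 were lower at 1% oxygen, with a median of −0.05 beside −0.02 for all. In let-7a, let-7b, let-7c, let-7d and let-7f the 2 sides did not overlap, against 11.0% of all 154 miRNAs. In each of these members the gap between the sides was under 2 spot standard errors, with the widest in let-7b (log2 0.037, spot SE 0.025). For let-7f it was 3447.30 for the highest signal at 1% oxygen against 3447.36 for the lowest at 20%. Without scaling the 2 sides overlapped in all 9 members, and 9.09% of all miRNAs kept apart. The family median was 0.08 without scaling and 0.11 with spike-in scaling, so its direction is not settled.

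With against without high glucose, 9.74% of all miRNAs passed and no member did. let-7c had the lowest adjusted p among members, 0.435 by limma, at 10.89 ± 0.01 with high glucose and 11.00 ± 0.09 without it, a difference of −0.12. The family median was −0.01 beside 0.02 for all. In no member did the 2 sides keep apart, against 29.2% of all miRNAs. Under other scalings single members passed, in opposite directions. Without scaling let-7g (0.23, limma adjusted p = 0.0476) and let-7i (0.22, adjusted p = 0.0430) were higher, where 31.2% of all miRNAs passed. With scaling to the median let-7c was lower (−0.28, limma adjusted p = 0.0269), where 25.3% of all passed.

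With against without palmitate no member passed, and 0.0% of all miRNAs did, with 5 at an unadjusted limma p under 0.05. let-7e had the lowest adjusted p among members, 0.909 by limma, at 9.73 ± 0.02 with palmitate and 9.64 ± 0.07 without it (log2 signal, SD, n = 3 each). The family median was −0.03 beside −0.0044 for all. In no member did the 2 sides keep apart, against 7.79% of all miRNAs. In the deposited table let-7a, let-7b and let-7c passed in this grouping, at −0.21, −0.25 and −0.31, and 27.3% of all miRNAs passed with them. The column that this table names palmitate is the one that equals the high glucose scan. Exchanging these 2 labels on the scanner values gave 0 members passing in this grouping, beside 9.74% of all miRNAs. The parts of the exchange and of the table's factor per array in the 3 passes were not tested.

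Other miRNAs tied to let-7 gave the following readings. Of the 11 passenger strands on the array, the 3p strands that are mostly discarded after processing, 1 was detected, let-7b-3p, on 2 arrays. It stood at the floor of both, 17.2 in triple stimuli plus rapamycin and 22.7 in the control, where the floor is the lowest signal of any detected probe on that array, so its values have no order. The 2 other mouse miRNAs on the array with the same seed in RefSeq, let-7k and miR-1961, were not detected on any array.

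The cluster partners of let-7 in the genome, miR-99a, miR-99b, miR-100, miR-125a and miR-125b, were all detected on at least 4 arrays and none was called in any comparison. miR-125a, the neighbour of let-7e, read 414 in triple stimuli plus rapamycin, 423 in triple stimuli, 433 in hypoxia, 455 in palmitate and 380.4 in high glucose, against 463 in the control. Its difference of −0.28 (spot SE 0.04) in high glucose stood beside −0.13 for let-7e. miR-99b, of the same cluster, was at −0.32 (spot SE 0.03) there. miR-99a, the neighbour of a let-7c gene, ran from 50.9 to 56.0 over the 6 arrays. In high glucose minus control miR-99a was at 0.04, whereas let-7c was at −0.17. miR-100 was not detected on all arrays and did not enter the groupings. None of the other 4 passed in any of the 3 groupings, with the lowest limma adjusted p at 0.283, for miR-125a and miR-99b with against without high glucose.

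Of 22 miRNAs of the miR-290 and miR-302 clusters, which mark embryonic stem cells, 1 was detected, miR-290-5p, on 3 arrays. It read 41.2 in triple stimuli plus rapamycin, 26.1 in triple stimuli and 66.6 in high glucose, and was not well above background in hypoxia, palmitate or the control. Its difference of 0.66 (spot SE 0.13) between triple stimuli plus rapamycin and triple stimuli was past 1.5-fold. In that comparison 3.8% of 184 miRNAs were called. The triple stimuli reading was near the floor of that array, 21.2, so the size of this difference is uncertain.

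The 5 other miRNAs whose course over the 6 arrays lay nearest the family median were miR-18a-5p, miR-221-3p, miR-140-3p, miR-107-3p and miR-34a-5p. Each course was taken as log2 signals minus their own mean, and the root mean square difference from the family was 0.04 for miR-18a-5p and 0.05 for miR-34a-5p. let-7i (0.02) and let-7f (0.02) were the members nearest the family median, and miR-98 (0.07) the farthest. All of these courses are close to flat and share the same 6 arrays.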

How the data were processed

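The 6 scanner files, 1 array per condition held the authors' deposited spot intensities on a linear scale, background-subtracted by Agilent Feature Extraction 10.7.3.1 per the file headers and not normalised between arrays. The deposited value table holds 1 linear, uncentred signal per miRNA, which equalled the scanner software's sum over probes, up to a factor per array, for 9 of 9 members and for 81.9% to 84.2% of detected miRNAs. The origin of the factor and of the other values is not stated in the labels or headers.

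A probe's value was the mean intensity of its unflagged spots. Detection required a share of 0.5 or more of a probe's spots to be flagged well above background. Arrays were scaled to the 75th percentile of the 281 probes detected on all 6, floored at the lowest detected signal, and moved to log2. The brighter probe stood for a miRNA. Comparisons of 2 arrays used 1.5-fold and 2 spot standard errors. Groupings of 3 against 3 used limma 3.58.1 (lmFit, eBayes, Benjamini-Hochberg, threshold 0.05) in R 4.3.3. Of the groupings, only that by oxygen was also run on simulated data, with independent errors for each array. The number of arrays limits the precision.

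The family, lists and tests were proposed with earlier results of these data known, although the rule for members reads names alone. The text names all 9 members, listed miRNAs that were detected, and the 5 nearest courses. Alternatives were other scalings, background correction, probe and spot summaries, the deposited table, exchanged labels, leaving out an array and slide column as a block. Sequences and coordinates are from RefSeq (GRCm38.p6) and the probe design.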

Additional observations from a re-analysis of the deposited data

How the results depend on the processing

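With 1 array per condition and 1 slide, the number of arrays limits every value, and differences under the spot error or the scaling cannot be resolved. Replicate numbers pair no arrays, since each condition has 1. Slide column pairs arrays at 1% with arrays at 20% oxygen, and with it as a block 0 members passed in that grouping; it was not run for the others. In the comparisons of 2 arrays 0 members were called under every alternative, the lower fold limit included. The family median moved as follows, on the log2 scale; the cause was not tested. Triple stimuli minus control moved by less than the robust SD of all miRNAs (0.24) but turned sign, to 0.19 without scaling and 0.18 with spike-ins, and was −0.22 with scaling to the median. Palmitate minus control turned positive in 7 of 12 alternatives. Without scaling the family median was 0.27 (high glucose minus control), 0.072 (hypoxia minus control), 0.29 (triple stimuli plus rapamycin minus control), 0.10 (triple stimuli plus rapamycin minus triple stimuli), 0.081 (1% minus 20% oxygen), 0.19 (with minus without high glucose, 2 members passing) and 0.054 (with minus without palmitate). With spike-in scaling these were 0.18, 0.043, 0.25, 0.068, 0.11, 0.18 (2 passing, beside 27.9% of all miRNAs) and 0.058. With the percentile over all probes it was 0.15 for palmitate minus control, 0.19 for triple stimuli plus rapamycin minus triple stimuli, −0.11 for oxygen and −0.11 for high glucose. With scaling to the median it was −0.12 for oxygen and −0.18 for high glucose (1 passing). Without the let-7 probes it was 0.083 for hypoxia minus control, 0.018 for oxygen and −0.10 for high glucose. Quantile normalisation gave −0.091 for high glucose (1 passing, beside 16.2% of all miRNAs). The summed signal gave 0.058 for hypoxia minus control and 0.035 for oxygen. The deposited table gave −0.23 for palmitate minus control and −0.20 for the palmitate grouping (3 passing), where let-7a was −0.21, against 0.0052 in the scanner files. Leaving out 1 array in turn gave family medians of −0.07 to −0.05 (oxygen), −0.04 to 0.0052 (high glucose) and −0.06 to −0.0022 (palmitate), with 0 members passing each time.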
